A study of Mus musculus with 30 samples.

Results

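The 10 genes described here are those whose level in the mouse embryonic stem cell (ESC) line R1 lay apart from that in induced pluripotent lines and in the ESC line TT2 in a chemical reprogramming study. They are Ubd, Gipc2, Gemin7, Tmem245, Flywch2, Xaf1, Kbtbd11, Scml2, Slc13a5 and Parm1, 10 of the 19084 genes with a symbol on the array, read by 12 probes. The genes were picked because induced lines differed from R1 in these very samples, so their differences from R1 are given as a description and carry no test. Cy5-labelled RNA of 30 samples was read on a 1-colour whole-genome oligonucleotide array, and the values are probe intensities on a linear scale. Chemically induced pluripotent stem cell (CiPSC) lines gave 11 samples, made with small molecules alone from embryonic fibroblasts (MEF), neonatal fibroblasts (MNF), adult lung fibroblasts (MAF) or adipose-derived stem cells (ADSC). The chemical mixture differed between lines. The line labelled ADSC CiPS2 carries an ADSC title and an adult lung fibroblast source, and it was treated here as non-MEF under either reading. Lines made from MEF with the transcription factors Oct4, Sox2, Klf4 and c-Myc (OSKM iPSC) gave 2 samples, and lines made from MEF with Sox2, Klf4, c-Myc and forskolin (SKM-FSK iPSC) gave 2 more. ESC gave 4 samples of R1 and 1 of TT2, all without chemicals. The 7 somatic samples were 4 of MEF and 1 each of MNF, MAF and ADSC, untreated. The labels call the MEF of set 3 wild type and its CiPSC lines WT1 and WT2, and give no genotype for the MEF of the other sets. MEF under chemicals were sampled once each at day 12 (mixture VC6TF), day 20 and day 32 (VC6TF+Z).

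All pluripotent lines grew on a feeder layer of mitomycin C-treated MEF, whereas the somatic cells grew in DMEM with serum and no stated feeder. The samples were normalized by the authors in 5 sets, and each set held 1 ESC sample. R1 stood in sets 1, 3, 4 and 5. TT2 stood only in set 2, so the line and the set cannot be told apart, and R1 and TT2 were compared only through the induced lines beside them. Every line was 1 sample, which the design text describes as 3 arrays in sets 1, 2 and 4 and 2 arrays in sets 3 and 5, and nothing says whether these were separate cultures. Comparisons of levels were therefore made within a set, and p-values measure only the spread between these samples.

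The labels were checked against marker genes. Esrrb, a pluripotency regulator, read 10473 to 33299 in the 20 pluripotent samples and 42.2 to 91.0 in the 7 somatic ones. Col6a1, a fibroblast collagen, read 206 to 1792 in the pluripotent samples and 5270 to 54945 in the somatic ones. Thy1 was 63.4 to 7189 in pluripotent and 6971 to 42864 in somatic samples, the highest pluripotent values being in set 3. The Pou5f1 and Nanog probes overlapped between the groups (Pou5f1 24.2 to 2448 in pluripotent and 39.2 to 437 in somatic samples, Nanog 139.5 to 31423 in pluripotent and 81.8 to 763 in somatic samples). In set 5 the Sox2 and Tfcp2l1 probes did not mark pluripotent samples. Sox2 read 41.1 in the CiPSC line, 34.2 in R1, 28.2 in MEF3 and 73.2 at day 12. Tfcp2l1 read 18.7, 17.3 and 14.6 in the CiPSC line, R1 and MEF3. In pluripotent samples of the other sets measured, Sox2 read 9183 or more and Tfcp2l1 5864 or more. Summed over the 12 measured of 16 fibroblast and feeder markers, the 2 CiPSC lines of set 3 read 47491 and 55292, against 19111 in R1 and 222422 in the MEF of that set.

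The genes do not form a known pathway. Ubd encodes FAT10, a ubiquitin-like modifier that marks proteins for the proteasome and is switched on by inflammatory cytokines. Xaf1 encodes a binding partner of the caspase inhibitor XIAP and is an interferon-inducible gene. Gemin7 is a subunit of the SMN complex, which loads Sm proteins onto the small nuclear RNAs of the spliceosome. Scml2, on the X chromosome, encodes a polycomb-related protein with MBT repeats that bind methylated lysines. Slc13a5 encodes the plasma membrane sodium-citrate cotransporter. Gipc2 is a PDZ-domain adaptor, Kbtbd11 a kelch and BTB domain protein, Flywch2 a small relative of a FLYWCH zinc finger protein, Tmem245 a multi-pass membrane protein and Parm1 a mucin-like membrane glycoprotein.

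By RefSeq's GRCm38.p6 annotation the 10 genes lie on 8 chromosomes. Ubd (chr17:37193892-37196101) and Flywch2 (chr17:23776914-23786216) share chromosome 17 at a distance of 13407675 bases. Slc13a5 (chr11:72241990-72267295, minus strand) and Xaf1 (chr11:72301461-72313733, plus strand) are neighbouring protein-coding genes on chromosome 11, 34165 bases apart with their 5′ ends facing each other. The others are Gipc2 (chr3:152093839-152165900), Gemin7 (chr7:19564949-19573343), Tmem245 (chr4:56876003-56947455), Kbtbd11 (chr8:15011025-15033333), Scml2 (chrX:161082525-161258218) and Parm1 (chr5:91517700-91624011). The promoters below are RefSeq reference sequence of GRCm38.p6, 250 bases before to 50 bases after a start site given in the promoter table, and not sequence read from R1 or from any line studied. These start sites need not be the outermost end of the gene, and those of Xaf1 and Slc13a5 lie inside the gene coordinates above. They are shown because Ubd had the largest difference from R1 and because Slc13a5 and Xaf1 are the chromosome 11 pair. CG dinucleotides are in capitals.
Ubd promoter (chr17:37193642-37193941, plus strand): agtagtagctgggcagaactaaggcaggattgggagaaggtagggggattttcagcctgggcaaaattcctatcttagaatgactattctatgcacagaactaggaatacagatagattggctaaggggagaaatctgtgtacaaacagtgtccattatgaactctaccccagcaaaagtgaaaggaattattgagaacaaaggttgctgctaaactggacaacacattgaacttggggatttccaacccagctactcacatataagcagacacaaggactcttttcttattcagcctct
Xaf1 promoter (chr11:72301379-72301678, plus strand): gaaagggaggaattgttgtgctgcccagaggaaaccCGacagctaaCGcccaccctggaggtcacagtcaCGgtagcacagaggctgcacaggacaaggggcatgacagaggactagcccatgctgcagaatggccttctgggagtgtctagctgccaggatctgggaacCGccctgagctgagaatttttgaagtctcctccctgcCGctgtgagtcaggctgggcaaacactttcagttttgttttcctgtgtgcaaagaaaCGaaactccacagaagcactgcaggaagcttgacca
Slc13a5 promoter, upstream start (chr11:72267112-72267411, minus strand): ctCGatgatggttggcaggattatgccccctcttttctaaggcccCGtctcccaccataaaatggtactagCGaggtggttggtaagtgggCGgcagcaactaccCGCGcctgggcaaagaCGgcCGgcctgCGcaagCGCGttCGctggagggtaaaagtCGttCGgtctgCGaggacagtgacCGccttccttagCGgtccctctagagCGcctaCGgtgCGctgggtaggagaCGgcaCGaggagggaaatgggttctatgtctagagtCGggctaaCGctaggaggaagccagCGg
The Ubd window held 0 CG dinucleotides, a count that 5.43% of 32851 mouse promoters of the same length share, and its GC content was 42.3% against a median of 52.7%. The Xaf1 window held 6, and the Slc13a5 windows held 25 and 17 at their 2 annotated starts, against a median of 7 over all promoters. The other members with a promoter in the table held 13 (Scml2), 16 (Parm1), 22 (Flywch2), 23 (Tmem245) and 26 (Gemin7). Thus the member promoters ranged from CG-free to CG-rich. The interferon response element core (GAAA, any 2 bases, GAAA), the gamma-activated site TTCNNNGAA, the cAMP response element TGACGTCA and the TATA box TATAAA were searched on both strands. These letters were in 3.44, 8.30, 1.79 and 13.6% of all promoters and in none of the 9 member windows.

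Tmem245 also hosts a microRNA. The mature forms of miR-32 lie inside the gene on its own strand, at chr4:56895272-56895293 (5p) and chr4:56895232-56895252 (3p). Their RefSeq sequences, with the seed (bases 2 to 8) in capitals, are shown because the host gene is the member that was at least 2-fold lower in R1 than in every line.
miR-32-5p: uAUUGCACauuacuaaguugca
miR-32-3p: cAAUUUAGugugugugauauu
The values below are those of the host transcript, and levels of the mature microRNAs were not analysed here. An array entry for Mir32 was measured in 1 induced line only and differed from R1 by 0 on the log2 scale. Whether that reading was above background was not examined.

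**Figure D1:**
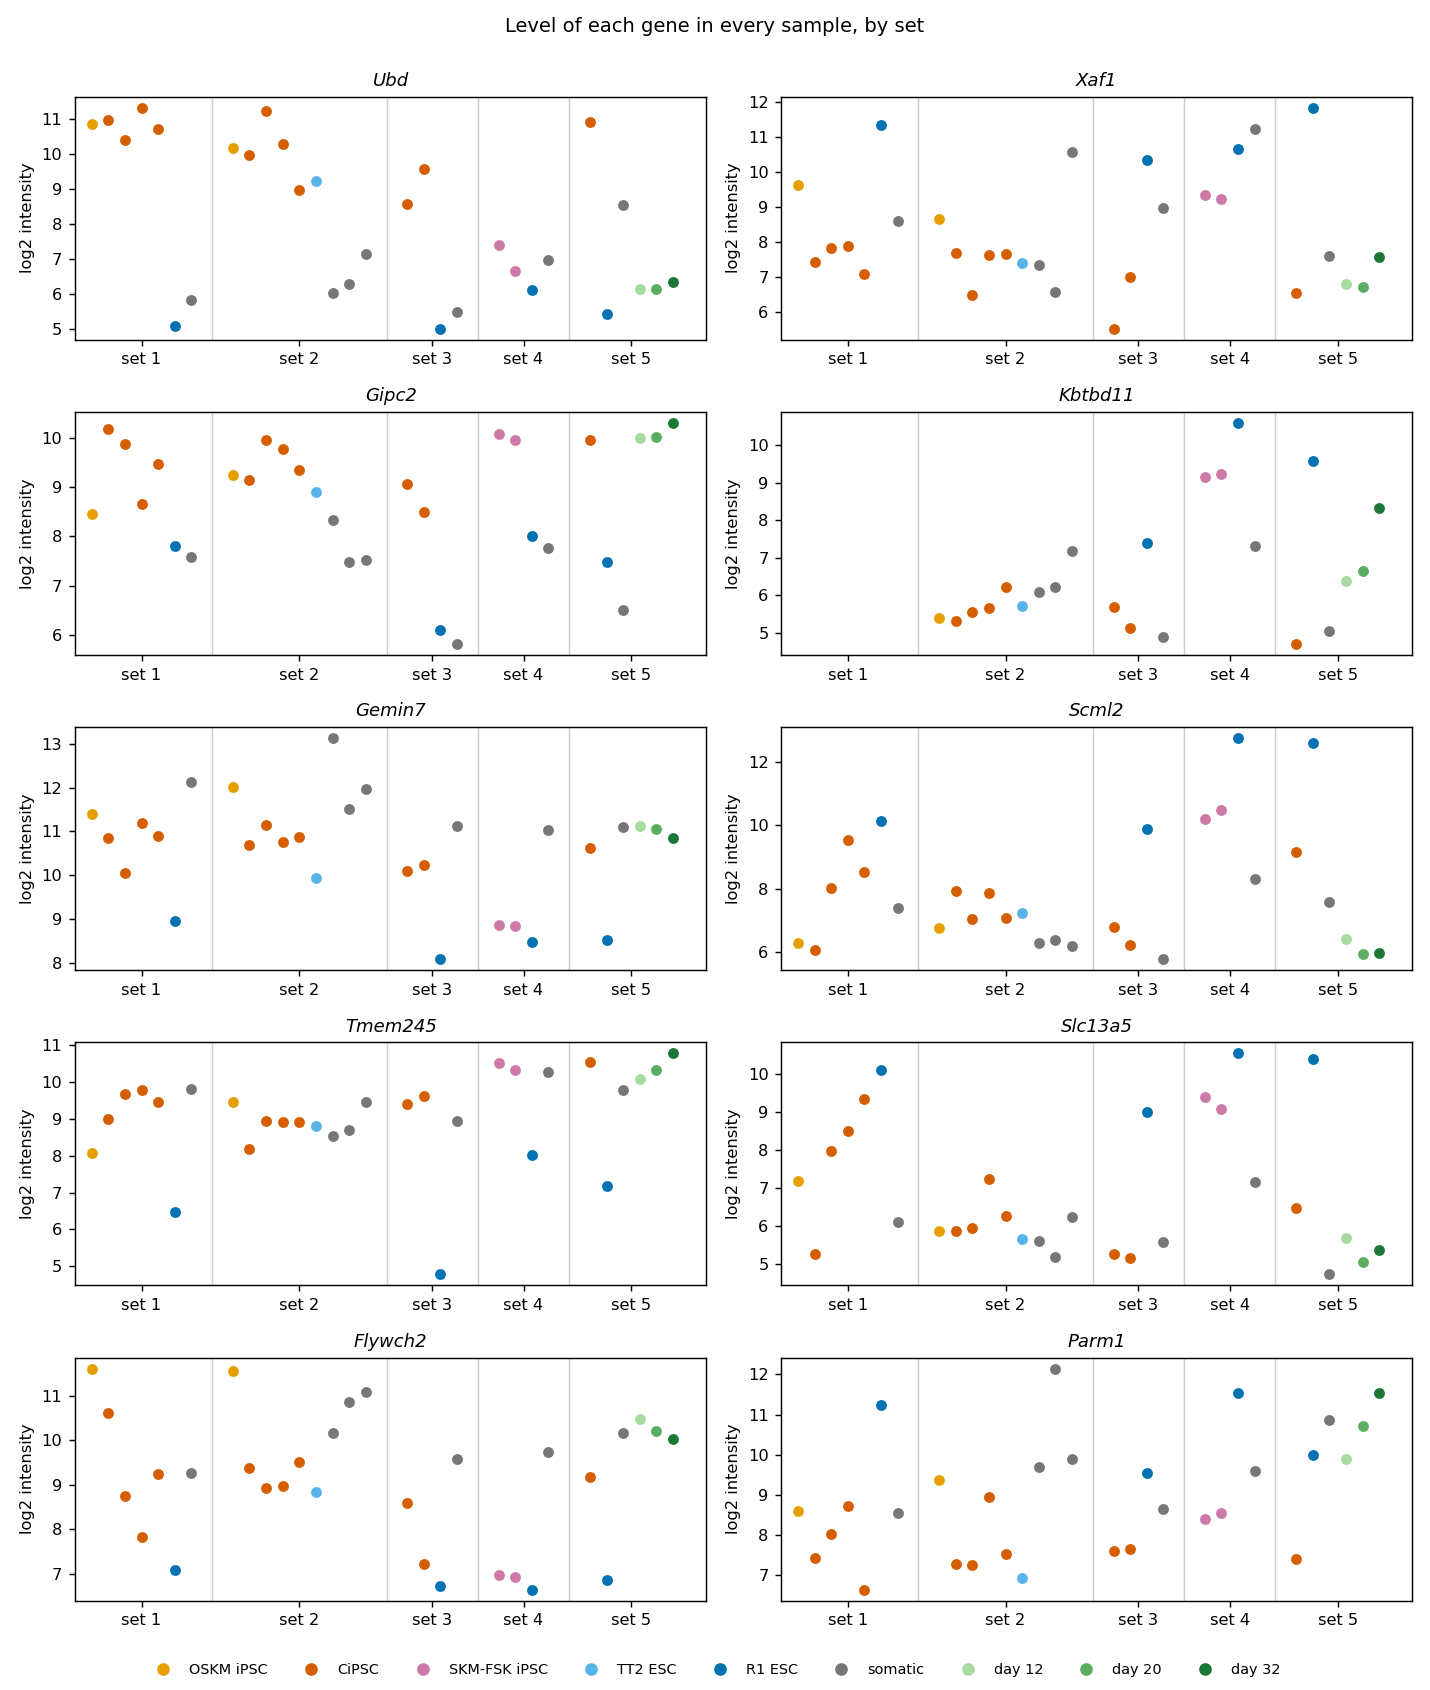
Log2 intensity of the 10 genes in every sample, 1 panel per gene and 1 point per sample, grouped by the 5 separately normalized sets. Colours mark the sample type. In sets 1, 3, 4 and 5 the R1 point lies below all induced lines in the left column of panels and above them in the right column, whereas the TT2 point of set 2 lies among the induced lines or close to them. Kbtbd11 was not measured in set 1.

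Among the genes that were lower in R1, Ubd showed the widest gap. In set 1, Ubd read 1363, 1705, 2582 and 2018 in the 4 CiPSC lines and 1876 in the OSKM iPSC line, against 33.9 in R1 and 56.2 in MEF. In set 3 the CiPSC lines read 378 and 771, against 32.1 in R1, and in set 5 the CiPSC line read 1953, against 43.2 in R1. These 8 lines were 11.8-fold (CiPS WT1) to 76.2-fold (CiPS50) above the R1 of their set. The SKM-FSK iPSC lines of set 4 read only 169 and 101, against 68.6 in R1 and 126 in MEF, which is 2.47-fold and 1.47-fold above R1. No detection call was used here. The R1 readings of Ubd (32.1 to 68.6) lay within or below the range of Esrrb in somatic samples (42.2 to 91.0), so they may be background, and these folds are given as a description. The same limit applies to other member readings of 91.0 or less. Examples are Slc13a5 in CiPS WT1 (38.0) and Kbtbd11 in the CiPSC line of set 5 (26.0).

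Gipc2 was low in R1 and in somatic cells and higher in induced lines. It read 933, 705, 405 and 1154 in the CiPSC lines of set 1 and 350.2 in OSKM iPSC, against 224 in R1 and 193 in MEF. The SKM-FSK lines of set 4 read 1073 and 989, against 256 in R1 and 218 in MEF. The CiPSC lines of set 3 read 533 and 361, against 69.2 in R1, and the CiPSC line of set 5 read 994, against 179 in R1. All 10 induced lines lay above R1 and 8 by at least 2-fold, the exceptions being CiPS50 and OSKM iPS1. R1 itself was 0.22 to 0.98 above the somatic sample of its set on the log2 scale.

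For Gemin7, Tmem245 and Flywch2 the R1 level lay below induced lines and somatic cells alike. Gemin7 read 1059.9, 1914, 2342 and 1858 in the CiPSC lines and 2683 in the OSKM line of set 1, against 495 in R1 and 4453 in MEF. In sets 3 and 5 the CiPSC lines read 1100.1, 1204 and 1568, against 271 and 364 in R1. The SKM-FSK lines read 467 and 458, against 356 in R1, while the MEF of that set read 2100.0. The SKM-FSK lines thus sat within 0.39 of R1 on the log2 scale, and the other 8 lines were 1.10 to 2.44 above it.

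Tmem245 was the member that was at least 2-fold lower in R1 than in each of the 10 induced lines. It read 818, 703, 880.1 and 511 in the CiPSC lines and 268 in the OSKM line of set 1, against 89.2 in R1 and 893 in MEF. In set 3 it read 683 and 789 in the CiPSC lines, against 27.5 in R1 and 494 in MEF. In set 4 the SKM-FSK lines read 1453 and 1291 and in set 5 the CiPSC line read 1499.9, against 259 and 144 in R1. All lines but OSKM iPS1 were within 2-fold of the MEF of their set, and R1 was low. The differences ran from 1.59 (OSKM iPS1) to 4.84 (CiPS WT2) on the log2 scale, with a median of 3.09. The R1 reading of set 3 (27.5) may be background, so the sizes in that set are uncertain.

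Flywch2 differed widely between induced lines. It read 431, 604, 226 and 1560.1 in the CiPSC lines and 3112 in the OSKM line of set 1, against 136 in R1 and 618 in MEF. In set 4 Flywch2 read 125 and 122 in the SKM-FSK lines, against 100.3 in R1 and 849.7 in MEF. Of the 10 lines, 6 were at least 2-fold above R1, and those under that mark were CiPS50, CiPS WT2 and both SKM-FSK lines. CiPS WT2 read 150.4 and CiPS WT1 389, against 106 in R1 and 763 in the MEF of set 3.

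Gemin7, Tmem245 and Flywch2 were high in fibroblasts, so fibroblast and feeder markers were read beside them, with a different number measured in each set. In set 1 the 3 measured (Col6a1, Thy1 and S100a4) summed to 521 to 1294 in the CiPSC lines and 683 in the OSKM line, against 926 in R1 and 110669 in MEF. In set 4 the 14 measured summed to 40606 and 44314 in the SKM-FSK lines, against 51573 in R1. In set 5 the 15 measured summed to 26066 in the CiPSC line, against 20595 in R1. Vim, an intermediate filament gene, made up most of these larger sums. It read 43045 and 39238 in the SKM-FSK lines, against 50115 in R1 of set 4, and 23829 in the CiPSC line, against 15144 in R1 of set 5. Several matrix and surface genes ran the other way in set 5, whereas Col1a1, Col5a1, S100a4 and Twist2 did not. The proteoglycan Dcn read 128 in the CiPSC line, against 1309 in R1, Postn 262, against 1137, Thy1 478, against 1056, Col1a2 206, against 619.8, and Lum 9.67, against 238. In set 3 the sums were higher in the CiPSC lines than in R1, as given above, with Vim at 29878 and 34643, against 17452 in R1, and Postn at 3661 and 4154, against 130.2. The part of fibroblast or feeder RNA in the differences of the 3 genes was not tested. Nor was it tested for Parm1 and Xaf1, which were also high in some somatic samples (Parm1 4514 in MAF, Xaf1 2386 in MEF2). In bulk RNA, fewer cells of a type and less RNA per cell cannot be told apart.

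Of the genes that were higher in R1, Xaf1 read 224, 134, 233 and 170.1 in the CiPSC lines and 783 in the OSKM line of set 1, against 2587 in R1 and 387 in MEF. The CiPSC lines of sets 3 and 5 read 45.8, 127 and 91.8, against 1301 and 3636 in R1. The SKM-FSK lines read 640.5 and 597, against 1619.8 in R1 and 2386 in MEF. Every induced line was at least 2-fold below R1. The 7 CiPSC lines lay between -5.31 and -3.36 from it on the log2 scale, and the OSKM and SKM-FSK lines between -1.72 and -1.34. Somatic cells were not uniform, with 1504 in MNF and 95.2 and 160.2 in MAF and ADSC.

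Its neighbour Slc13a5 read 249.9, 649, 358 and 38.1 in the CiPSC lines and 146 in the OSKM line of set 1, against 1089 in R1 and 68.1 in MEF. In sets 3 and 5 the CiPSC lines read 38.0, 35.4 and 88.9, against 513 and 1337 in R1. The SKM-FSK lines read 666 and 536, against 1479.8 in R1 and 142 in MEF. MNF CiPS7 came nearest to R1, 1.68-fold below it, and the CiPSC lines of set 3 were below the MEF of their set. R1 was 3.38 to 5.66 above the somatic samples on the log2 scale.

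Scml2 read 261, 372, 750.1 and 67.4 in the CiPSC lines and 77.2 in the OSKM line of set 1, against 1119 in R1 and 169 in MEF. The SKM-FSK lines read 1181 and 1434, against 6917 in R1 and 319 in MEF. In sets 3 and 5 the CiPSC lines read 110.5, 75.2 and 569.5, against 949.8 and 6232 in R1. CiPS50 was the line nearest to R1, 1.49-fold below, and CiPS21 the farthest in set 1. Because Scml2 is X-linked, genes of the sex chromosomes were read too. Xist, the RNA that coats the inactive X chromosome, was between 58.4 and 207 in all 20 pluripotent samples, and R1 of set 5 was the highest of them. In set 5 the sample MEF3 stood apart, with 620.5 for Xist and 1.08 for the Y-linked Eif2s3y, against 79.1 to 114 and 377 to 397 at days 12 to 32. The Y-linked Kdm5d and Uty went the other way. They read 537 and 72.1 in MEF3, against 238 to 313 and 35.2 to 43.8 at days 12 to 32.

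Kbtbd11 could be followed in sets 2 to 5. It read 51.2 and 34.9 in the CiPSC lines of set 3, against 168 in R1, and 26.0 in the CiPSC line of set 5, against 761 in R1. In set 4 it read 570.3 and 599.6 in the SKM-FSK lines, against 1541 in R1 and 158 in MEF. All 5 lines were at least 2-fold below R1, and the SKM-FSK lines lay between MEF and R1. A second Kbtbd11 probe was measured only in set 5 and did not show the difference, with 26.5 in the CiPSC line and 27.5 in R1, so the Kbtbd11 result rests on 1 probe.

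Parm1 read 263, 100, 420.2 and 172 in the CiPSC lines and 391 in the OSKM line of set 1, against 2429.6 in R1 and 374 in MEF. In set 4 Parm1 read 338 and 373 in the SKM-FSK lines, against 2942 in R1 and 779 in MEF. In sets 3 and 5 the CiPSC lines read 194, 202 and 169, against 750.1 and 1023 in R1. Every line was at least 2-fold below R1 and also below the MEF of its set, except CiPS50 and OSKM iPS1, which exceeded MEF1. The second Parm1 probe kept the order, with 83.6 and 95.8 in the SKM-FSK lines and 898 in R1, and with 41.1 in the CiPSC line of set 5 and 291 in R1.

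For all 10 genes, every induced line lay on the same side of the R1 of its own set (10 of 10 lines for 9 genes, 5 of 5 for Kbtbd11). The median differences of induced lines from R1 on the log2 scale were 5.41 for Ubd, 3.09 for Tmem245, 2.06 for Gipc2, 1.99 for Gemin7 and 1.77 for Flywch2. They were -3.50 for Xaf1, -2.83 for Scml2, -2.81 for Parm1, -2.51 for Slc13a5 and -1.72 for Kbtbd11. With at least 2-fold asked of every line, 1 member was lower in R1 (Tmem245), against 0.0508% of 15740 genes, and 3 were higher (Xaf1, Kbtbd11 and Parm1), against 0.0953%. This contrast chose the members, and nothing is read from these counts. Just inside the 2-fold mark in their least different line were Xaf1 (-1.34) and Kbtbd11 (-1.36), and just outside it Slc13a5 (-0.75) and Gipc2 (0.65).

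The SKM-FSK lines did not sit at a uniform distance. They were near R1 for Flywch2 (0.32 and 0.28 on the log2 scale) and Gemin7 (0.39 and 0.36). For Ubd, SKM-FSK iPS1 was past 2-fold (1.30) and SKM-FSK iPS2 was not (0.55). Both lines were past 2-fold for Slc13a5 (-1.15 and -1.46), Xaf1 (-1.34 and -1.44), Kbtbd11 (-1.43 and -1.36) and Gipc2 (2.06 and 1.95). They were farthest from R1 for Parm1 (-3.12 and -2.98), Scml2 (-2.55 and -2.27) and Tmem245 (2.49 and 2.32). The SKM-FSK lines were the only induced lines of set 4, and whether they differ from CiPSC lines in this was not tested.

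**Figure D2:**
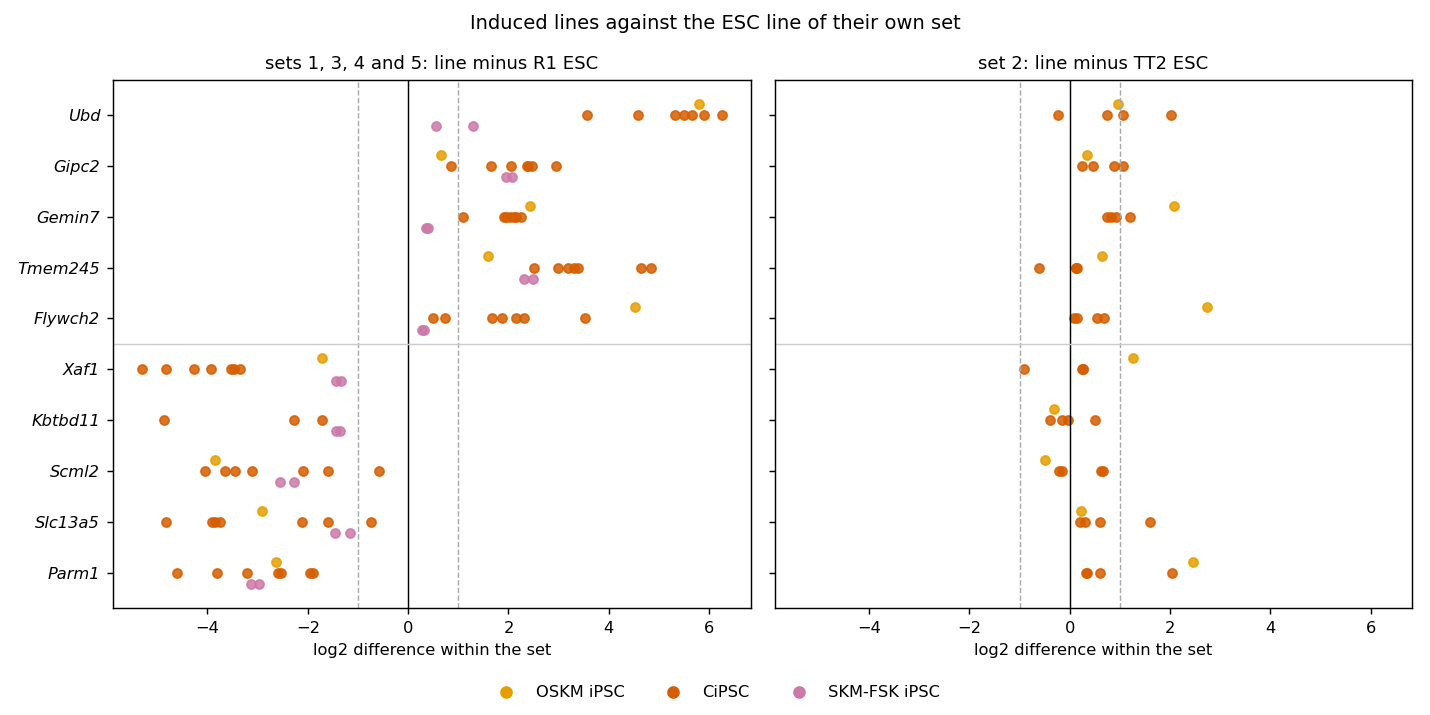
Log2 difference of each induced line from the ESC sample of its own set, with R1 as that sample on the left (sets 1, 3, 4 and 5) and TT2 on the right (set 2). Each point is 1 line and dashed lines mark 2-fold. On the left the upper 5 genes lie right of 0 and the lower 5 left of 0 in every line, and on the right OSKM iPS2 reaches 2.73 (Flywch2), with the CiPSC medians between -0.10 and 0.90.

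TT2 was set against the induced lines of set 2, without a test. The genes are by definition those that set R1 apart from TT2 too, so a TT2 level near these lines is a description. The 4 CiPSC lines of set 2 read 508, 1246, 2412 and 1005 for Ubd and OSKM iPS2 read 1169, against 598 in TT2 and 65.7 to 141 in somatic cells. Xaf1 read 202, 198, 89.2 and 203 in the CiPSC lines and 401 in OSKM iPS2, against 168 in TT2. Scml2 read 136, 233, 132 and 241 in the CiPSC lines and 108 in OSKM iPS2, against 152 in TT2. TT2 lay inside the range of the CiPSC lines for Ubd, Xaf1, Scml2, Tmem245 and Kbtbd11. It lay below all 4 CiPSC lines for Gipc2, Gemin7, Flywch2, Slc13a5 and Parm1. Gemin7 read 1869.7, 1732, 2259 and 1651 in the CiPSC lines, against 982 in TT2 and 2935 to 8979.6 in somatic cells, which put the lines 0.75 to 1.20 above TT2 on the log2 scale and on the same side as against R1. Parm1 read 184, 498, 153 and 155 in the CiPSC lines, against 122 in TT2 and 829.8 to 4514 in somatic cells, which is the side opposite to R1. The CiPSC medians minus TT2 ran from -0.10 (Kbtbd11) to 0.90 (Ubd), and at most 2 of the 4 lines reached 2-fold for any gene. OSKM iPS2 was more than 2-fold above TT2 for Flywch2 (2.73), Parm1 (2.45), Gemin7 (2.08) and Xaf1 (1.25).

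The remaining members were read in the same samples. Gipc2 read 655, 871, 995 and 564 in the CiPSC lines and 604 in OSKM iPS2, against 476 in TT2 and 179 to 324 in somatic cells. Tmem245 read 486, 487, 491 and 291 in the CiPSC lines and 698 in OSKM iPS2, against 447 in TT2 and 368 to 709 in somatic cells. TT2 thus lay in the somatic range of Tmem245, where R1 was below every somatic sample of its sets. Flywch2 read 725, 502, 483 and 659.5 in the CiPSC lines, against 454 in TT2, so OSKM iPS2 (3016) stood apart from both. Slc13a5 read 76.2, 151, 61.7 and 58.1 in the CiPSC lines, against 50.3 in TT2, and all of these but 151 may be background. Kbtbd11 was low throughout set 2, with 39.6 to 74.5 in the CiPSC lines, 41.9 in OSKM iPS2, 52.4 in TT2 and 67.7 to 144 in somatic cells.

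R1 was also set against the somatic samples of its sets, again without a test because the R1 samples chose the genes. Gemin7, Tmem245 and Flywch2 were at least 2-fold lower in R1 than in every somatic sample, 3 members against a background of 6.49% of 15740 genes. Kbtbd11, Scml2 and Slc13a5 were at least 2-fold higher in R1 than in every somatic sample, 3 members against 7.09%. Relative to fibroblasts, R1 was thus low for 3 members and high for 3, whereas Ubd, Gipc2, Xaf1 and Parm1 gave no such separation. Ubd was -3.11 to -0.48 in R1 minus somatic, Xaf1 -0.56 to 4.25 and Parm1 -0.86 to 2.70 on the log2 scale.

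The 11 CiPSC samples were then compared with the 7 somatic samples by limma, with the set as a term. This comparison did not choose the genes, although the CiPSC samples took part in that choice. Ubd was higher in CiPSC by 3.78 ± 0.34 on the log2 scale (SE, adjusted p = 2.09e-08) and Gipc2 by 2.26 ± 0.25 (adjusted p = 4.09e-07), in every CiPSC line against every somatic sample of its set. Scml2 was higher by 1.14 ± 0.36 (adjusted p = 0.0145). Parm1 (-2.11 ± 0.43, adjusted p = 0.000472), Gemin7 (-1.12 ± 0.22, 0.000292), Flywch2 (-1.20 ± 0.32, 0.00462) and Xaf1 (-1.45 ± 0.50, 0.0262) were lower in CiPSC. Tmem245 (0.20 ± 0.29, adjusted p = 0.601), Kbtbd11 (-0.35 ± 0.35, 0.449) and Slc13a5 (0.83 ± 0.44, 0.142) did not pass. In all 7 of 10 members were called, 3 higher and 4 lower, against 28.1% of 16497 genes called (14.8% higher and 13.3% lower). The CiPSC values are shared with the contrast that chose the members, so the count and the p-values are not free of that choice. Nothing is read from the count beside its background.

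Within sets the sizes varied. Ubd was higher in CiPSC by 5.05, 3.63, 3.59 and 2.39 in sets 1, 2, 3 and 5. Flywch2 differed by -0.17 in set 1, where CiPS21 exceeded MEF, and by -1.51, -1.66 and -0.98 in sets 2, 3 and 5. Xaf1 rested on few samples: without MNF its difference was -1.06 (adjusted p = 0.0813) and without the WT MEF of set 3 it was -1.23 (adjusted p = 0.0781). Gemin7 fell under 2-fold without ADSC (-0.92), its highest sample, and Slc13a5 passed without CiPS21 (1.01, adjusted p = 0.0314). With set 2 left out, which holds 3 of the 7 somatic samples, 4 members were called, as were 4320 of 15857 genes.

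**Figure D3:**
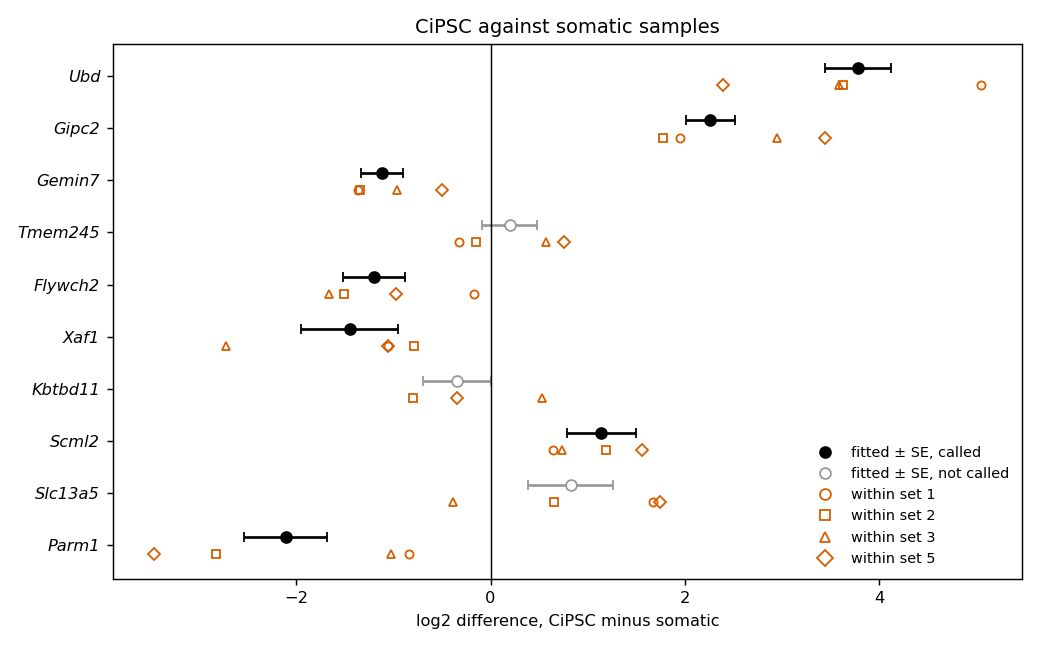
Difference of CiPSC from somatic samples on the log2 scale for each gene. Black and grey circles are fitted differences with their SE over all sets, filled where called, and orange symbols are the differences of mean log2 intensity within a set. Ubd and Gipc2 lie right of 0 in every set, Gemin7 and Parm1 left of it, and the symbols of Tmem245, Kbtbd11 and Slc13a5 fall on either side.

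Related genes were read in the same comparison. Of 17 tested genes of the SMN complex and snRNP assembly, 9 were higher in CiPSC and 0 lower, with a median of 1.29 against -0.11 over all genes, led by Gemin4 (2.72, adjusted p = 0.00392), the SMN partner Gemin2 (2.60, 1.97e-06), the helicase Ddx20 (1.94, 9.86e-05) and the methylosome subunit Wdr77 (1.88, 0.000283). Gemin7 was lower in the same comparison, opposite to the called members of its complex. Of 23 interferon and cytokine response genes, 13 were lower in CiPSC and 0 higher (median -1.53), among them the transcription factor Irf7 (-5.10), the immunoproteasome subunit Psmb8 (-3.69), Ifit1 (-3.42) and the class I light chain B2m (-3.18). Xaf1 was lower with them, and Ubd, likewise cytokine-inducible, was higher. Of 11 ubiquitin-like modifiers and FAT10 conjugation genes, 1 was lower, Uba7, the activating enzyme of ISG15 (-4.23), and 10 did not pass.

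Of 19 polycomb and MBT domain genes tested, 5 were higher and 4 lower in CiPSC. Cbx7, a chromobox subunit (5.34), the polycomb ring finger protein Pcgf6 (2.87) and the MBT protein L3mbtl2 (2.72) were higher, and the polyhomeotic homologue Phc2 (-2.18) was lower. Of 10 XIAP and caspase genes, the inhibitor of apoptosis Birc2 (1.58) and survivin, Birc5 (1.35) were higher and 8 did not pass. Of 9 citrate and SLC13 transport genes, Slc13a4, a sulfate transporter (1.37), was higher and 8 did not pass. None of 5 relatives of the members (Gipc1, Flywch1, Kbtbd2, Kbtbd4 and Kbtbd7) passed, nor did Cul3, the cullin scaffold that binds BTB proteins. Pluripotency genes were higher in 9 of 9 and fibroblast genes lower in 10 of 12, so these lists were read between cells of different identity.

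Between CiPSC and R1 the related lists had 0 called members, against 0.322% of 15857 genes called (0.139% higher and 0.183% lower in CiPSC). The median difference was 0.10 over 22 interferon genes, 0.0042 over 16 SMN complex genes and 1.21 over 12 fibroblast markers, against 0.03 over all genes. With so small a share called over all genes, 0 called in these lists is near the background and is not read as a result.

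The 2 OSKM lines were compared with the 11 CiPSC lines, a contrast within the induced lines. Flywch2 read 3112 and 3016 in the OSKM lines, against 226 to 1560 and 483 to 725 in the CiPSC lines of sets 1 and 2. Its difference was 2.47 ± 0.49 on the log2 scale, with an adjusted p of 0.492 by limma. Xaf1 read 783 and 401 in the OSKM lines, against 134 to 233 and 89.2 to 203 in the CiPSC lines of those sets (1.84 ± 0.76, adjusted p = 0.821). Gemin7 read 2683 and 4148 in the OSKM lines and at most 2342 and 2259 in the CiPSC lines (0.83 ± 0.34, adjusted p = 0.821). The differences of the other 6 tested members ran from -1.20 (Scml2) to 1.17 (Parm1). Of 9 members tested, 0 were called (Kbtbd11 was measured in too few sets), as were 0% of 11406 genes (643 genes had an unadjusted p under 0.05). Without CiPS21, the CiPSC line with the highest Flywch2, the adjusted p of Flywch2 was 0.0094 and its difference 2.69, with 3 of 11406 genes called. That fit leaves out the CiPSC line nearest to the OSKM lines, and the result remains that of the full fit.

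The origin of a CiPSC line was compared within sets 1 and 2, with 4 lines of non-MEF origin (2 from MNF and 1 each labelled MAF and ADSC) and 4 of MEF origin. Slc13a5 read 649 in the non-MEF line of set 1 and 76.2, 151 and 58.1 in those of set 2, against 249.9, 358 and 38.1 in the MEF-derived lines of set 1 and 61.7 in that of set 2. Its difference was 1.31 ± 0.81 and that of Ubd -0.83 ± 0.44 on the log2 scale, each with an adjusted p of 0.999 by limma. Of 9 members tested 0 were called, as were 0% of 11406 genes (147 had an unadjusted p under 0.05). The groups overlapped for Slc13a5 and for Ubd alike.

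During chemical treatment, with 1 sample per time and no test, Gipc2 had reached the level of the CiPSC line by day 12. It read 91.0 in MEF3, 1019, 1037 and 1262 at days 12, 20 and 32 and 994 in the established CiPSC line. It was 11.2-fold above MEF3 at day 12, when the 11 measured pluripotency markers summed to 2435, against 2778 in MEF3. Ubd read 372, 70.1, 69.9 and 81.8 over the same times and 1953 in the CiPSC line, so its high level was present in the line and not at day 32. Kbtbd11 read 32.9 in MEF3, 83.8, 99.5 and 319 during treatment and 26.0 in the line.

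Parm1 read 1858 in MEF3, 950.0, 1685 and 2968 during treatment and 169 in the CiPSC line. The day 32 culture was above R1 (1023). The second Parm1 probe also gave its highest value of set 5 at day 32, 725, against 291 in R1. That probe differed for MEF3, with 64.4, below day 12 (202) and R1 and not far above the CiPSC line (41.1). The high Parm1 level of MEF3 thus rests on 1 probe. Scml2 read 193 in MEF3, 84.7, 61.7 and 62.6 during treatment and 569.5 in the CiPSC line. Gemin7, Tmem245 and Flywch2 stayed within 2-fold of MEF3 at all 3 times and in the line, at 4-fold or more above R1. Xaf1 and Slc13a5 also stayed within 2-fold of MEF3 during treatment. MEF3 was the sample that stood apart in Xist, Eif2s3y and, among the somatic samples, in Ubd, and its part in these differences was not tested.

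**Figure D4:**
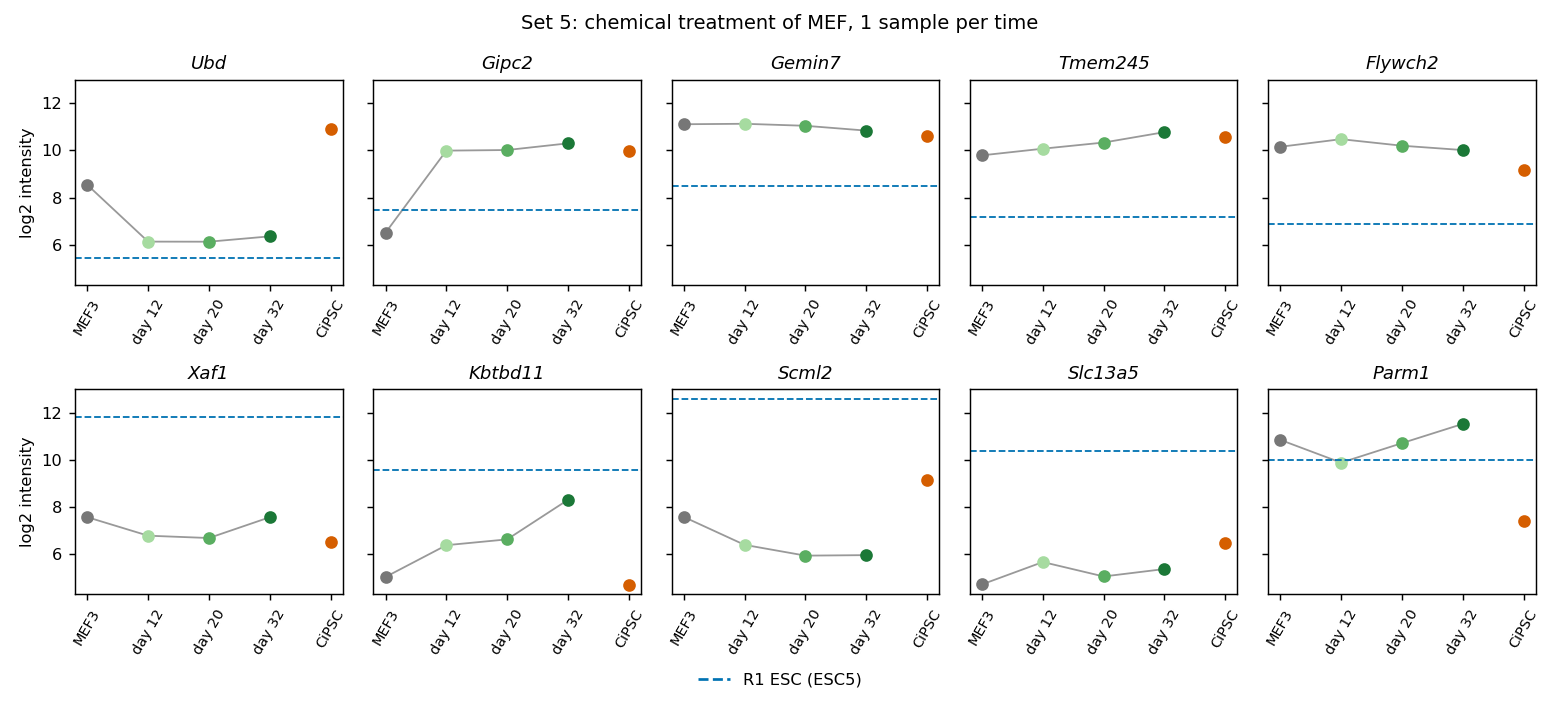
Log2 intensity of the 10 genes in set 5, from MEF3 through days 12, 20 and 32 of chemical treatment to the CiPSC line, with 1 sample at each point and no error bars. The dashed line is R1 of the same set. Gipc2 is at the CiPSC level from day 12 on, whereas Ubd is highest in the CiPSC line and low from day 12 to day 32, and Xaf1, Kbtbd11, Scml2 and Slc13a5 stay below R1 throughout.

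The neighbourhood of the members was searched because Slc13a5 and Xaf1 are neighbours among protein-coding genes, with the lncRNA genes Gm34252 and 1700051A21Rik annotated there too. Of 56 RefSeq genes among the 3 nearest on either side of a member, 25 were measured, and 1 differed from R1 by at least 2-fold the same way as its member in every line measured. This was Tekt1, which encodes a filament protein of ciliary and flagellar microtubules, 30983 bases beyond Xaf1 (chr11:72344717-72362442). Its 8 measured lines differed from R1 by -3.98 to -1.34 on the log2 scale. In set 2 its lines were 0.81 to 2.25 above TT2. Slc13a5, Xaf1 and Tekt1 are thus 3 genes close together that were higher in R1, and Fbxo39 between Xaf1 and Tekt1 had a median of -0.57 over its 3 lines.

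An interval of 250 kb on either side of the pair (chr11:71991990-72563733) was then described, chosen after these values were seen. Of its 24 genes 16 were measured. All lines were below R1 for Txndc17 (median -1.24), 4930563E22Rik (-0.56), Slc13a5, Xaf1, Fbxo39, Tekt1 and Spns3 (-2.06). Among the 13 genes measured in 5 or more lines, 6 had all lines below R1, and over 15811 genes of the array this was so for 4.81%. The 6 include the 2 members, chosen for being higher in R1, and Tekt1, which prompted the interval, so nothing is read from the count. Of the other genes of the interval, Aipl1 (0.23), Smtnl2 (-0.10), Mybbp1a (0.05), Pitpnm3 (-0.01) and Spns2 (-0.07) had medians near 0. Pimreg (-0.54), Ggt6 (-0.47) and 4933427D14Rik (-0.43) had medians further below 0, with lines on both sides of R1. Med31, measured in 1 line, was 1.16 above R1.

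**Figure D5:**
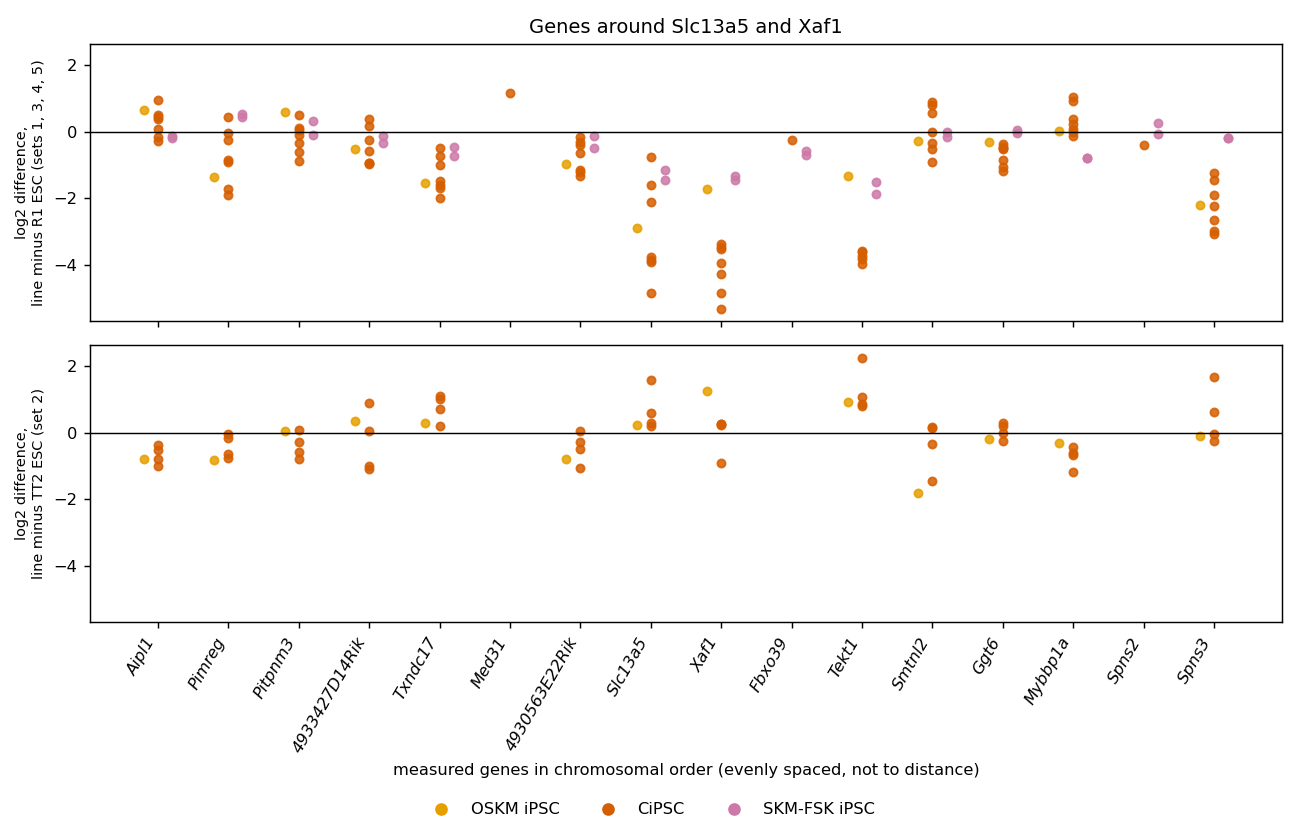
Log2 difference of induced lines from R1 (upper panel, sets 1, 3, 4 and 5) and from TT2 (lower panel, set 2) for the 16 measured genes around Slc13a5 and Xaf1, in chromosomal order and evenly spaced. Each point is 1 line. Slc13a5, Xaf1, Tekt1 and Spns3 have the widest differences from R1, down to -5.31 for Xaf1, and the points against TT2 lie between -1.82 and 2.25.

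The genes whose pattern came closest to a member were found by Pearson correlation of log2 intensity centred within sets, which is a description over samples that share sets and lines. Scml2 and Slc13a5, on different chromosomes, were closest to each other (r = 0.89, 30 samples). Both were chosen for being higher in R1, and the R1 samples are among the 30, so nothing is read from this match. Ubd was closest to Ercc2, a helicase of transcription factor TFIIH (r = 0.88, 30 samples), and Gemin7 to the ubiquitin ligase Rnf41 (r = 0.89, 30 samples). Flywch2 was closest to Clip3 (r = 0.90, 23 samples), Gipc2 to the p53 target Pmaip1 (r = 0.84, 21 samples), Xaf1 to the adhesion receptor Adgrg1 (r = 0.83, 21 samples), Parm1 to the lipid raft protein Rftn1 (r = 0.81, 23 samples) and Kbtbd11 to Ivns1abp (r = 0.78, 23 samples). Tmem245 was closest to Ints11, the endonuclease of the Integrator complex (r = 0.80, 30 samples). Ints11 was itself at least 2-fold lower in R1 than in all 10 induced lines, by 2.61 to 3.70 on the log2 scale, and lies on the same chromosome as Tmem245 (chr4:155869547-155889103), far from it.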

How the data were processed

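The deposited values are probe intensity on a linear scale, 1 column per sample, made by the authors from 1-colour arrays. Per the series' design text, 5 sets were normalized separately and each sample had 2 or 3 replicates, so a column appears to be their mean. No source used here gives the scanner, background correction or probe filter, and the number of arrays limits precision. Of 26423 probes, 21876 carried 1 gene in the platform annotation, and gene IDs of 21825 matched RefSeq (GRCm38.p6). Values were floored at 1e-04 and converted to log2. The probe measured in most samples, then with the highest mean, stood for a gene. The 4547 probes with no gene each stood alone and are counted among the genes tested. Comparisons used limma 3.58.1 in R 4.3.3, the model holding group and set for all 30 samples (origin: 8 CiPSC), Benjamini-Hochberg adjustment over all genes tested, and called genes at adjusted p under 0.05 and at least 2-fold. Genes needed values in at least 2 sets holding both groups and 3 residual degrees of freedom. The members and the 10 lists of related and marker genes (152 genes) were chosen with earlier results of these data known. Genes outside the lists were named by fixed rules: the gene with the highest correlation to each member, up to 4 called genes per list, and neighbours past 2-fold in every line. Genes of the chromosome 11 interval were chosen after their values were seen. On simulated data, 19% and 75% of genes changed by 1 and 2 on the log2 scale were recovered for CiPSC against somatic (16497 genes), 6% and 56% for OSKM iPSC against CiPSC, 17% and 57% for CiPSC against R1 (15857 genes) and 1% and 47% for origin (11406 genes for OSKM iPSC and for origin). Alternatives covered the floor, an offset, normalization, probes, filters, the variance prior, the set term, and samples and sets left out.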

Additional observations from a re-analysis of the deposited data

Results flagged for a closer look

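Ubd in MEF3 lay apart from the other somatic samples, 1.64 above the median of its set on the log2 scale, against -2.61 for the lowest somatic sample. Median intensity was about 110 in set 5 and 225 to 359 in the other sets, which raises set 5 samples on this scale. As intensity, Ubd read 372 in MEF3 and 44.9 to 141 in the other somatic samples. Of 19 groups tested for a sample far from the others, 1 was picked out, and chance picks about 1 in 20. The CiPSC lines were all on opposite sides of TT2 and of R1 for 2 genes. For Slc13a5 they lay 0.21 to 1.59 above TT2 (median 0.45, 4 lines) and between -4.84 and -0.75 from R1 (7 lines). Slc13a5 read 50.3 in TT2 and 76.2 or less in all of these set 2 lines but MAF CiPS3 (151). Such readings may be background, so the side of TT2 is uncertain for Slc13a5. For Parm1 the CiPSC lines lay 0.33 to 2.03 above TT2 (median 0.47, 4 lines) and between -4.60 and -1.89 from R1 (7 lines). These differences were not tested, because the contrast with R1 chose the genes, and the lines set against TT2 are not those set against R1.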

How the results depend on the processing

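Of the 10 members, 7 were called for CiPSC against somatic, 6 to 8 under 34 alternatives and 4 with set 2 left out (4320 of 15857 genes). Leaving out single samples gave 6 to 8. With the title numbers as replicate block 7 were called, and the block changed no call. The numbers do not pair the samples (same-number correlations ran from -0.38 to 0.39). Ubd, Gipc2 and Parm1 were called under every alternative. Xaf1 was lost in 7 (adjusted p 0.0545 to 0.113), Gemin7 and Scml2 in 2 each and Flywch2 in 1. Tmem245 turned to -0.042 without the set term and to -0.017 without the 2 CiPSC lines of set 3, an alternative chosen after seeing the data, and Kbtbd11 to 0.24 with set 2 left out. For OSKM iPSC against CiPSC, 0 were called, or 1 (Flywch2) without CiPS21, where 3 of 11406 genes were called. The range over CiPSC lines left out was 0 to 1. Tmem245 turned to 0.57 without OSKM iPS1 and 0.51 without set 1 (-1.55 to 0.57 over samples left out). For origin 0 were called in all 16 alternatives. Over lines left out, members whose origin difference changed sign ranged from -1.42 to 0.66 (Parm1, turned without MNF CiPS7), -0.016 to 0.64 (Flywch2, without CiPS50), -0.37 to 0.20 (Gemin7, 0.015 without CiPS50 and 0.20 without CiPS45) and -0.63 to 1.17 (Xaf1, without CiPS45). Members at least 2-fold lower in R1 than in every induced line numbered 1, or 2 without set 1 and 3 without set 4, and those higher numbered 3, or 5 without set 1 (2 to 5 over all). Causes of these changes were not tested. Fewer sets ask 2-fold of fewer lines.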

Other observations

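Over all genes, 8 were at least 2-fold lower and 15 at least 2-fold higher in R1 than in every induced line measured, members included. The 8 include a probe with no gene in the annotation. The genes named here were chosen after their values were seen, and the differences are log2 intensity of an induced line minus the ESC sample of its set, with no test. Rgcc, a regulator of cell cycle and complement response, was 1.33 to 4.54 higher than R1 in 10 lines, with a median of 0.21 against TT2. Ints11, the Integrator endonuclease, was 2.61 to 3.70 higher than R1 in 10 lines, with a median of 0.93 against TT2. Slc1a1, a glutamate transporter, had differences of -4.31 to -1.26 from R1 in 10 lines and a median of 1.09 against TT2. Snord13, a small nucleolar RNA, had differences of -6.20 to -2.01 from R1 in 10 lines and a median of -2.66 against TT2, so its median was below both ESC lines. Nckap1l had differences of -3.49 to -1.36 from R1 in 10 lines and a median of -1.12 against TT2, so its median was also below both ESC lines. Nfe2, nearby on chromosome 15, had differences of -2.33 to -1.18 from R1 in 5 lines and a median of 0.76 against TT2. Besides Xaf1 and Tekt1, the genes higher in R1 included BC049762, Fgf18 and Myh3, elsewhere on chromosome 11.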
